A study of Mus musculus with 10 samples.

Results

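Cortical projection neurons are sorted into classes by a small network of transcription factors, and 9 of its genes were examined here: Fezf2, Bcl11b, Bcl11a, Sox5, Tbr1, Foxp2, Rorb, Cux1 and Cux2. The genes were taken by name for their known roles, with no threshold on read counts, and all 9 had a row among the 24453 genes of the count table. Libraries were made from intratelencephalic projection neurons (IT-PNs) of layer 5 of the primary motor cortex (M1), cells that send their axons to the other hemisphere. Each of 5 animals gave 1 library of Fezf2+ve cells and 1 of Fezf2-ve cells, so that the 10 libraries form 5 pairs. The question was which of these factors were detected at all, and whether their levels differed between the 2 types.

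All animals were male mice hemizygous for the BAC reporter transgene (Zfp312-EGFP)CO61GsatMmnc on a Swiss Webster background, in which GFP is driven by regulatory elements of Fezf2 (Zfp312 is an older name of the gene). The left M1 received the retrograde tracer cholera toxin subunit b coupled to Alexa 647 between postnatal days 23 and 25, and layer 5 of the right M1 was dissected by its GFP between days 28 and 32. Fezf2+ve cells carried GFP and tracer, and Fezf2-ve cells carried tracer without GFP. The labels give no other treatment, genotype or age for either type. The labels give mean yields of 11280 Fezf2+ve and 2688 Fezf2-ve cells, but the study's text differs from the labels on the Fezf2-ve yield and describes a smaller input to each library, so that the number of cells behind a library is uncertain. The sort reads the reporter and the tracer, not the Fezf2 transcript, and the dissection itself followed GFP. In such bulk samples, fewer cells of a type and less RNA per cell cannot be told apart.

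In the developing cortex, Fezf2 directs deep-layer neurons towards subcortical targets and acts upstream of Bcl11b, while Tbr1, Sox5 and Bcl11a bear on the balance between corticothalamic and subcerebral neurons. Cux1 and Cux2 are homeodomain proteins of upper-layer neurons that project within the cortex, and the nuclear receptor Rorb is known from layer 4. Foxp2, a forkhead repressor, is best known from layer 6 and from a share of layer 5 neurons.

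Sequencing was shallow. Reads assigned to genes numbered 118134, 107643, 118069, 151591 and 203379 in Fezf2+ve libraries 1 to 5, and 167916, 89138, 168711, 211368 and 217738 in Fezf2-ve libraries 1 to 5. Levels are given as reads or as CPM (reads of a gene scaled to 1e6 assigned reads). A floor of 3 reads corresponded to between 13.8 and 33.7 CPM, depending on the library. Floors and intervals here cover counting error only, since reads amplified by PCR and in vitro transcription are not independent molecules.

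The gene used to define the types was almost absent from the counts. Fezf2 (chr14:12342094-12348189, minus strand, GRCm38) had 0, 0, 0, 0 and 1 read in Fezf2+ve libraries 1 to 5 and 0 reads in each of the 5 Fezf2-ve libraries. The single read lay in the reporter-positive type, but 1 read among 698816 corresponds to 1.43 CPM with an exact 95% Poisson interval from 0.0362 to 7.97, and the same interval for 0 reads among 854871 reaches up to 4.32 CPM. At this depth a difference of Fezf2 between the types was not detectable, so that these counts do not check the labels. For reference, the primer pair that the study used to amplify Fezf2 from the sorted cells is printed here, because it marks the stretch of the transcript on which the types were checked by another assay.
Fezf2 forward: gggggaacgcagggtcctca
Fezf2 reverse: tttagaagtggccggtgacg
In the GENCODE transcript Fezf2-201, which has 5 exons and 2188 bases, the forward primer matched exon 1 (chr14:12345760-12345779) and the reverse primer exon 2 (chr14:12345108-12345127). The reverse primer site ended 1684 bases before the 3′ end of that transcript.

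Bcl11b, Bcl11a and Tbr1 were as sparse. Bcl11b (chr12:107910403-108003602, minus strand), the zinc finger protein also called Ctip2, had 1 read, in Fezf2+ve library 2. Bcl11a (chr11:24078056-24174123, plus strand), its paralogue Ctip1, had 1 read each in Fezf2+ve libraries 3 and 4. Tbr1 (chr2:61802930-61814114, plus strand), a T-box factor of layer 6, had 0 reads in all 10 libraries, for which the exact 95% Poisson interval over the 1553687 reads together reaches up to 2.37 CPM. All 4 reads of Fezf2, Bcl11b and Bcl11a fell in Fezf2+ve libraries, but none of these genes reached the floor of 3 reads in any library, and no fold change is given for them.

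In all, 8 of the 9 factors had at least 1 read in some library, and 5 of 9 (Sox5, Foxp2, Rorb, Cux1 and Cux2) had at least 3 reads in some library. The same 5 passed the filter used for testing, 10 CPM or more in at least 2 libraries, and each of them reached that level in at least 2 libraries of both types. The plot of levels by library shows all 9 factors on one scale.

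**Figure D1:**
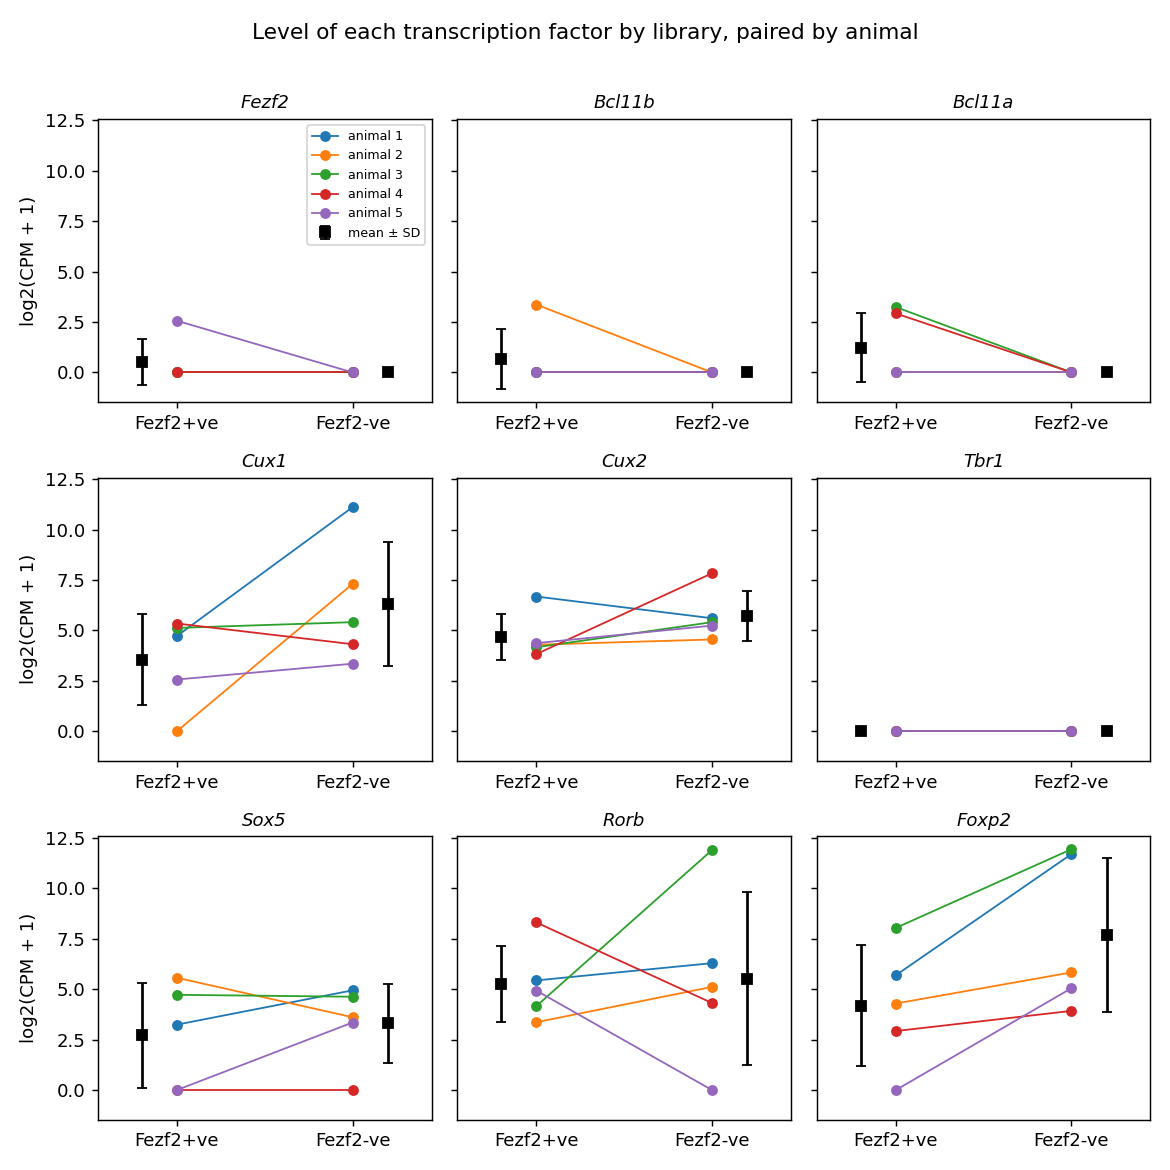
Level of each of the 9 factors as log2(CPM + 1) in every library, with a line joining the Fezf2+ve and the Fezf2-ve library of each of the 5 animals and black squares for the mean ± SD of 5 libraries. Foxp2 was lower in the Fezf2+ve library of 5 of 5 animals, whereas the lines of Rorb and Sox5 cross.

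Foxp2 (chr6:14901349-15441977, plus strand) had the most reads of the 9, 1280 in all. Its reads were 6, 2, 31, 1 and 0 in Fezf2+ve libraries 1 to 5 and 560, 5, 665, 3 and 7 in Fezf2-ve libraries 1 to 5, or 50.8, 18.6, 263, 6.60 and 0 CPM against 3335, 56.1, 3942, 14.2 and 32.1 CPM. The Fezf2-ve library was the higher one in every animal, by a wide margin in animals 1 and 3 and by a few reads in animals 2, 4 and 5. The ranges of the types nevertheless overlapped, since Fezf2+ve library 3 lay above 3 of the Fezf2-ve libraries. Mean levels were 67.7 ± 111 CPM in Fezf2+ve and 1476 ± 1986 CPM in Fezf2-ve libraries (SD, n = 5 each), so that the spread within the Fezf2-ve type was larger than its mean. On the log2(CPM + 1) scale the paired difference was -3.50 ± 2.18 (SD, n = 5 animals), and in the exact two-sided paired permutation test it was matched only by 2 of the 32 sign patterns, the fewest that 5 pairs can give and too many for a p under 0.05. Of the 5 tested factors, 0 had ranges that did not overlap between the types, against 1.04% of the 7409 tested genes. For Cux2 the overlap rests on Fezf2+ve library 1, and without it all 5 Fezf2-ve libraries lay above the Fezf2+ve range. How many of all tested genes would separate in the same way was not counted, so that no result is read from this. Leaving out the highest Fezf2+ve library of Cux1, Sox5, Rorb or Foxp2 did not separate the types. Foxp2 was the 1 factor of 5 that was lower in Fezf2+ve in every animal. Of all tested genes, 2.6% were lower in the Fezf2+ve library of all 5 animals.

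Rorb (chr19:18930605-19111196, minus strand) had 5, 1, 2, 48 and 6 reads in Fezf2+ve libraries 1 to 5 and 13, 3, 646, 4 and 0 reads in Fezf2-ve libraries 1 to 5. Fezf2-ve library 3 alone held 88.7% of its 728 reads, and among the Fezf2+ve libraries number 4 stood highest. Rorb was higher in the Fezf2-ve library of 3 animals and in the Fezf2+ve library of the other 2, and the Fezf2+ve libraries, between 9.29 and 317 CPM, lay inside the wider Fezf2-ve range of 0 to 3829 CPM. The paired difference was -0.28 ± 5.09 on the log2(CPM + 1) scale (SD, n = 5 animals, exact paired permutation p = 0.938).

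Sox5 (chr6:143828425-144781977, minus strand), a SoxD factor that paces the birth of deep-layer neurons, had 1, 5, 3, 0 and 0 reads in Fezf2+ve libraries 1 to 5 and 5, 1, 4, 0 and 2 reads in Fezf2-ve libraries 1 to 5. Levels were low in both types and overlapped, with 16.1 ± 19.9 CPM against 14.8 ± 11.9 CPM (SD, n = 5 each). In animal 4 both libraries were at 0, and the remaining animals split evenly in direction (exact paired permutation p = 0.75).

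Both upper-layer factors were detected. Cux1 (chr5:136248135-136567490, minus strand) had 3, 0, 4, 6 and 1 reads in Fezf2+ve libraries 1 to 5 and 371, 14, 7, 4 and 2 reads in Fezf2-ve libraries 1 to 5. Here it was Fezf2-ve library 1 that stood apart, with 90.0% of the 412 reads, and Fezf2-ve libraries 4 and 5 lay within the Fezf2+ve range. Means were 20.8 ± 17.5 CPM and 487 ± 965 CPM (SD, n = 5 each), while the medians, 25.4 and 41.5 CPM, were close.

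Cux2 (chr5:121856366-122050102, minus strand) was the only factor with a read in all 10 libraries, at 12, 2, 2, 2 and 4 reads in Fezf2+ve libraries 1 to 5 and 8, 2, 7, 48 and 8 reads in Fezf2-ve libraries 1 to 5. Fezf2-ve library 4 was high and the others lay within the Fezf2+ve range. That overlap rests on Fezf2+ve library 1 alone. Without it, a choice made after the counts were seen, the Fezf2+ve libraries lay between 13.2 and 19.7 CPM, at 2 to 4 reads each. All 5 Fezf2-ve libraries then lay above them, between 22.4 and 227 CPM. The lowest of these 5, Fezf2-ve library 2, had 2 reads, under the floor of 3, in the smallest library of 89138 reads. Its place above Fezf2+ve libraries with 2 to 4 reads comes from library size alone. Over the 10 libraries Cux2 had an SD of 1.26 on the log2(CPM + 1) scale, the smallest of the 5 tested factors. Cux1 and Cux2 were each higher in the Fezf2-ve library of 4 of 5 animals, the exception being animal 4 for Cux1 and animal 1 for Cux2 (exact paired permutation p = 0.25 for each). In animal 2 both libraries had 2 reads of Cux2, so that its direction there comes from library size alone. Mean levels of Cux2 were 34.0 ± 37.9 CPM in Fezf2+ve and 75.1 ± 85.5 CPM in Fezf2-ve libraries (SD, n = 5 each).

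In the fit across all genes (quasi-likelihood test of edgeR, blocked by animal, Benjamini-Hochberg adjusted p at or below 0.1 over 7409 genes), 0 of the 5 tested factors were called, against 0% of all tested genes, and the smallest adjusted p of any gene was 0.914. At an unadjusted p under 0.05 the same test took 0 of the 5 factors and 292 genes, or 3.94%. The log2 fold change, Fezf2+ve over Fezf2-ve, was -3.53 ± 1.95 for Foxp2, -2.14 ± 1.97 for Cux1, -0.96 ± 1.49 for Cux2, -0.45 ± 1.84 for Sox5 and 0.04 ± 2.17 for Rorb (SE), with an edgeR adjusted p of 0.999 for each. The median over all tested genes was -0.18 and that of the 5 factors -0.96. The sign of Rorb changed in 6 of 12 alternative analyses, scaling by library size among them, and that of Sox5 in 1, without animal 5.

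DESeq2 with the same block gave another answer for 1 factor, and it gave Sox5 no adjusted p. It called 98 of the 1664 genes to which it gave an adjusted p, or 5.89%, and among them Foxp2, with a log2 fold change of -3.70 ± 1.19 (SE) and a DESeq2 adjusted p of 0.0668. That call was lost without animal 1 (DESeq2 adjusted p = 0.262), animal 3 (0.226) or animal 5 (0.244), while the log2 fold change stayed at -3.05, -3.65 and -3.31. Without animals 1 and 3 together, a choice made after their counts were seen, DESeq2 gave Foxp2 no adjusted p and a log2 fold change of -2.74. Without the animal block edgeR called 646 genes, or 8.72%, and 0 of the 5 factors (Foxp2 edgeR adjusted p = 0.170). At an unadjusted p under 0.05 it took 1596 of the 7409 tested genes and 2 of the 5 factors, Foxp2 and Cux1. With so many of all genes taken, 2 of 5 is not read as a result about the factors. The plot of fold changes sets the 5 factors beside the other projection neuron factors.

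**Figure D2:**
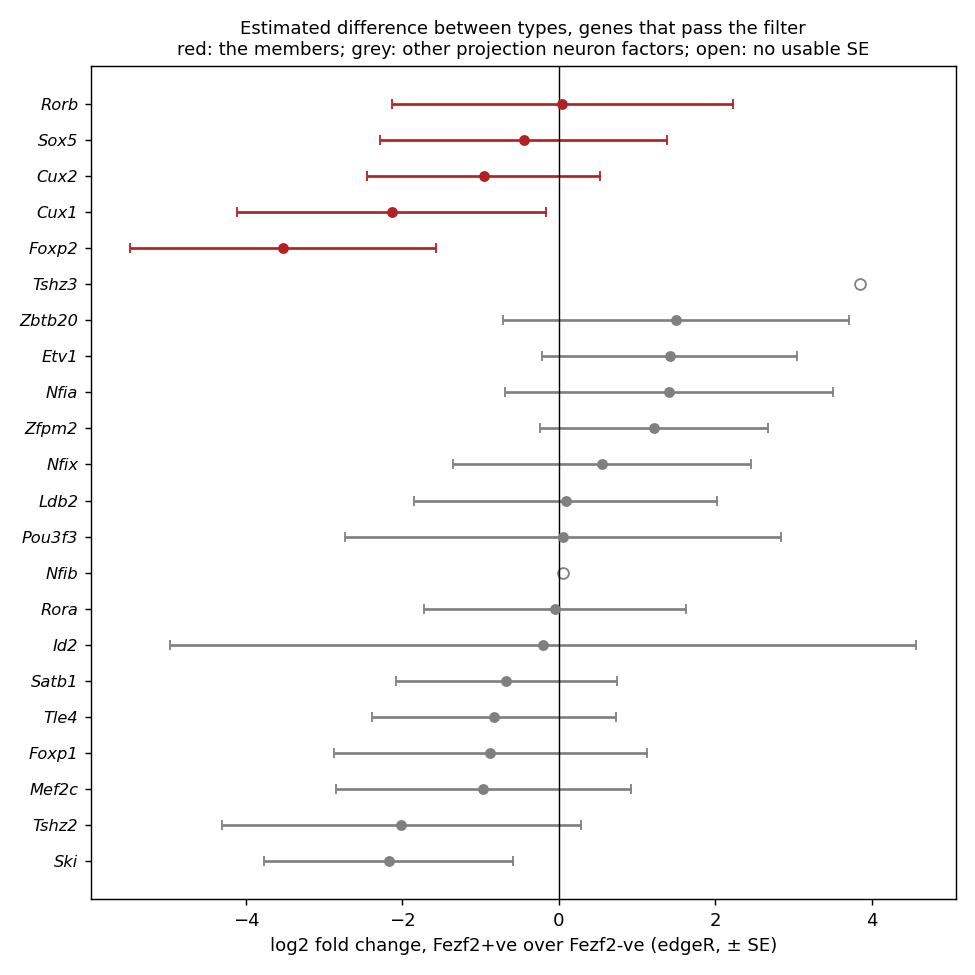
Log2 fold change from edgeR with the animal block, Fezf2+ve over Fezf2-ve, with SE bars, for the 5 factors that pass the filter (red) and 17 of the 18 other projection neuron transcription factors that do (grey, 1 not shown). Open circles have no usable SE, and 0 of these 22 genes were called.

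Whether a factor was seen went with the length of its gene. The 5 factors that passed the filter span between 181 and 954 kb of the genome, and the 4 that did not span between 6.10 and 96.1 kb. Across the 9 factors, Spearman's rho between span and mean CPM was 0.767 and Pearson's r of the logarithms 0.711, given as a description over 9 genes that share the same 10 libraries. The same was seen over the 23464 genes whose names matched the annotation, of which 11.3% passed the filter when they spanned under 10 kb, 24.6% between 10 and 30 kb, 48.4% between 30 and 100 kb, 75.2% between 100 and 300 kb and 94.4% above that. Fezf2, at 6.10 kb, and Tbr1, at 11.2 kb, lay in the shortest classes, and Bcl11a and Bcl11b, at 96.1 and 93.2 kb, in a class where close to an even share of genes passed. The part of gene length in which factors were detected was not tested. The study's methods do not state whether introns were counted, although its text reports that a high share of reads mapped to introns in both types.

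**Figure D3:**
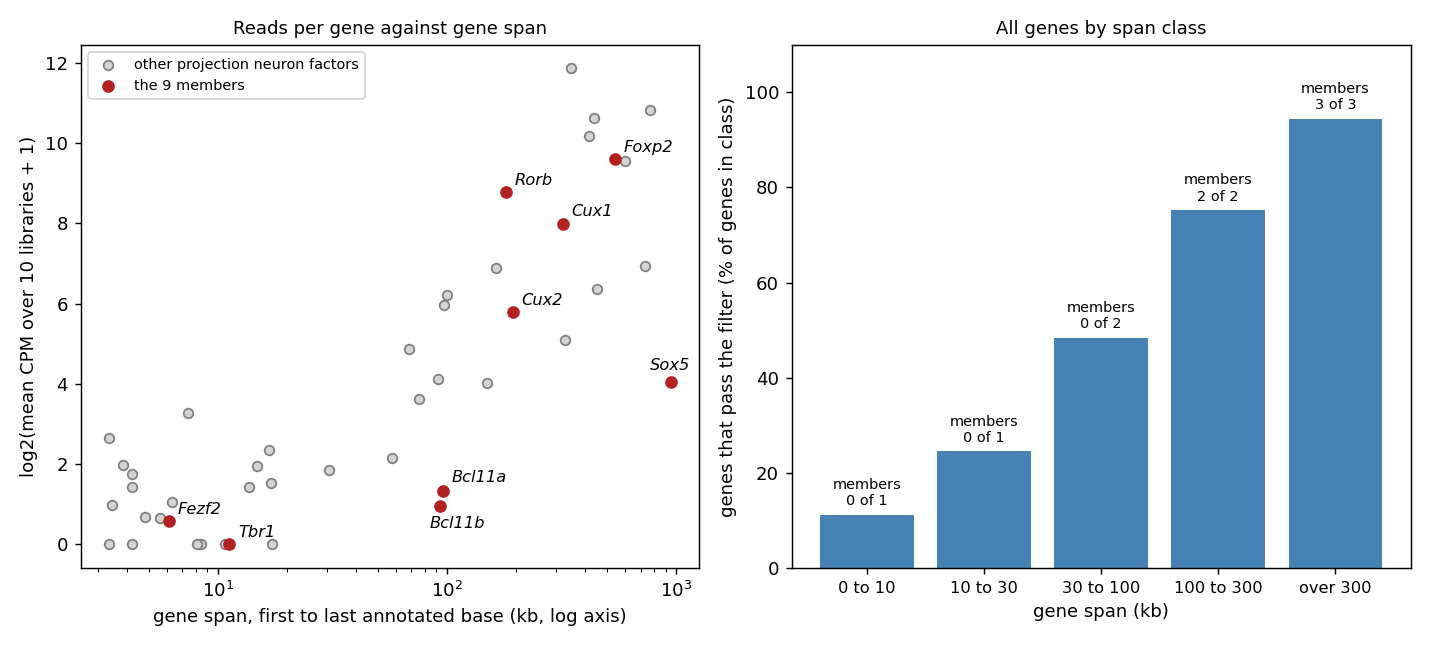
Left, log2(mean CPM over 10 libraries + 1) against gene span in kb (log axis) for the 9 factors (red) and 37 of the 38 other projection neuron factors (grey, 1 not shown). Right, percent of all matched genes in each span class that pass the filter, with the number of the 9 factors above each bar. Percentages climb from 11.3 to 94.4 with span, and 0 of the 4 factors under 100 kb passed.

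Levels of different genes are set side by side here per length, although the study describes its libraries as biased towards 3′ ends, a kind of library in which length is often left out of account. As mean CPM over all 10 libraries per kb of gene span, Rorb came first with 2.42, followed by Foxp2 with 1.43, Cux1 with 0.795 and Cux2 with 0.281. Sox5 was at 0.0162, and Fezf2, Bcl11a and Bcl11b, with 1 or 2 reads each, and Tbr1, with 0, are not ranked. Per kb of annotated exons Foxp2 came first with 47.2 and Rorb second with 39.5, so that the order of these 2 rests on the length used. It also rests on 1 library: without Fezf2-ve library 3, a choice made after the counts were seen, Rorb had 0.335 per kb of span, below Cux1 with 0.869 and Foxp2 with 0.776, and without Fezf2-ve library 1 Cux1 fell to 0.115, below Cux2 with 0.285. Neighbours in this order from Rorb to Cux1 did not differ beyond their spread over libraries, each having an SD larger than its mean in the Fezf2-ve type. The order also differs by type. In Fezf2+ve libraries the means were 34.0 CPM for Cux2, 67.7 for Foxp2 and 20.8 for Cux1, over spans of 194, 541 and 319 kb. Per kb of span Cux2 thus came before Foxp2 and Cux1 there, and Rorb stayed first. The order within this type rests on single libraries as well. Rorb had 317 CPM in Fezf2+ve library 4 and at most 42.3 CPM in the other Fezf2+ve libraries. Cux2 had 102 CPM in Fezf2+ve library 1 and at most 19.7 CPM in the others, and Foxp2 263 CPM in library 3 and at most 50.8 CPM. In the Fezf2-ve type alone the order was that of all 10 libraries.

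High counts of the factors sat in single libraries, and not always in the same one. The 9 factors together had 27, 11, 43, 58 and 12 reads in Fezf2+ve libraries 1 to 5 and 957, 25, 1329, 59 and 19 reads in Fezf2-ve libraries 1 to 5. Fezf2-ve libraries 1 and 3 stood far above the rest through Foxp2 in both, Cux1 in library 1 and Rorb in library 3. These 2 libraries also had the most genes with a read, 7334 and 7918, against 3990 to 6677 in the others. The share of reads from spiked-in ERCC transcripts ranged from 2.79 to 46.7% over the 10 libraries. The part of such differences between libraries in the counts of the factors was not tested. The highest library held 87.5% of the summed CPM of Rorb, 87.0% of Cux1, 51.1% of Foxp2, 41.6% of Cux2 and 30.1% of Sox5. Among the 3060 tested genes with between 30 and 1500 reads, this share had a median of 54.4% (quartiles 36.2 and 81.0%), and among 26 spiked-in ERCC transcripts in the same range of reads it was 23.5%. Rorb and Cux1 were thus above the upper quartile of all such genes, and Foxp2 and Cux2 below the median.

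The 2 genes whose pattern over the 10 libraries was most like that of each factor are named here. For Foxp2 these were Pdzd8 (Pearson r of log2(CPM + 1) = 0.965) and Pcdh9 (r = 0.907), for Rorb Mir466o (r = 0.867) and Auh (r = 0.865), and for Cux1 Etv4 (r = 0.878) and Plppr4 (r = 0.864). Of the 182 reads of Etv4, 175 lay in Fezf2-ve library 1, and of the 538 reads of Auh, 528 lay in Fezf2-ve library 3. For Cux2 they were 3110082I17Rik (r = 0.897) and Galnt4 (r = 0.886), and for Sox5 Ptprf (r = 0.945) and Kcmf1 (r = 0.922). These values are the highest among all tested genes, over 10 libraries, and are given as a description. Among the 5 factors themselves, Foxp2 ran most closely with Sox5 (r = 0.714) and Cux1 (r = 0.633), while Cux1 and Cux2, which are paralogues, had an r of 0.143.

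A list of 38 other transcription factors of projection neurons gives the setting. Of these, 31 had a read, 18 passed the filter and 0 were called by edgeR with the block. At an unadjusted p under 0.05 the same test took 1 of the 18 (Tshz3), against 3.94% of all tested genes. Without the block edgeR called 3 of the 18, against 8.72% of all tested genes. The median log2 fold change of the 18 was 0.00, with 9 above 0 and 9 below. Those that passed had a median span of 174 kb and those that did not 8.22 kb, although Id2 (3.34 kb) and Pou3f3 (7.41 kb) passed, and Lhx2 (30.5 kb) and Foxp4 (57.5 kb), with a few reads each, did not (these 4 were named after their counts were seen). Bhlhe22, Nr4a2, Neurod1, Sox11, Zbtb18, Nr2f1 and Otx1 were at 0 in all 10 libraries. Tshz3 had 0, 10, 0, 1 and 3 reads in Fezf2+ve libraries 1 to 5 and 0 reads in the Fezf2-ve type. It passed the filter only through Fezf2+ve libraries 2 and 5 and is named for the smallest p of the list, so that no fold is read from it. Ski, a transcriptional corepressor, was lower in Fezf2+ve in 5 of 5 animals like Foxp2, with a log2 fold change of -2.17 ± 1.59 (SE, edgeR adjusted p = 0.999). Its reads were 1, 1, 1, 2 and 0 in Fezf2+ve and 2, 4, 24, 3 and 7 in Fezf2-ve libraries 1 to 5. Every Fezf2+ve library was thus under the floor of 3 reads. Of all tested genes, 2.6% were lower in Fezf2+ve in all 5 animals.

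Tle4 and Etv1, known from corticothalamic and layer 5 neurons, had 24 and 23 reads spread over the libraries. Tle4 had 8 reads in Fezf2+ve and 16 in Fezf2-ve libraries and was higher in Fezf2-ve in 4 of 5 animals. Etv1 had 16 and 7 reads and was higher in Fezf2+ve in 4 of 5 animals (exact paired permutation p = 0.125 for each). Foxp1, a relative of Foxp2, had 1229 of 1264 reads in Fezf2-ve library 3, Tshz2 had 2628 of 2661 there, and Rora, a relative of Rorb, had 170 of 229 in Fezf2-ve library 4. Of the 23 factors tested from both lists, 9, or 39.1%, had their highest CPM in Fezf2-ve library 3, where 12.3% of all tested genes had theirs. Foxp2 and Rorb are 2 of those 9.

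**Figure D4:**
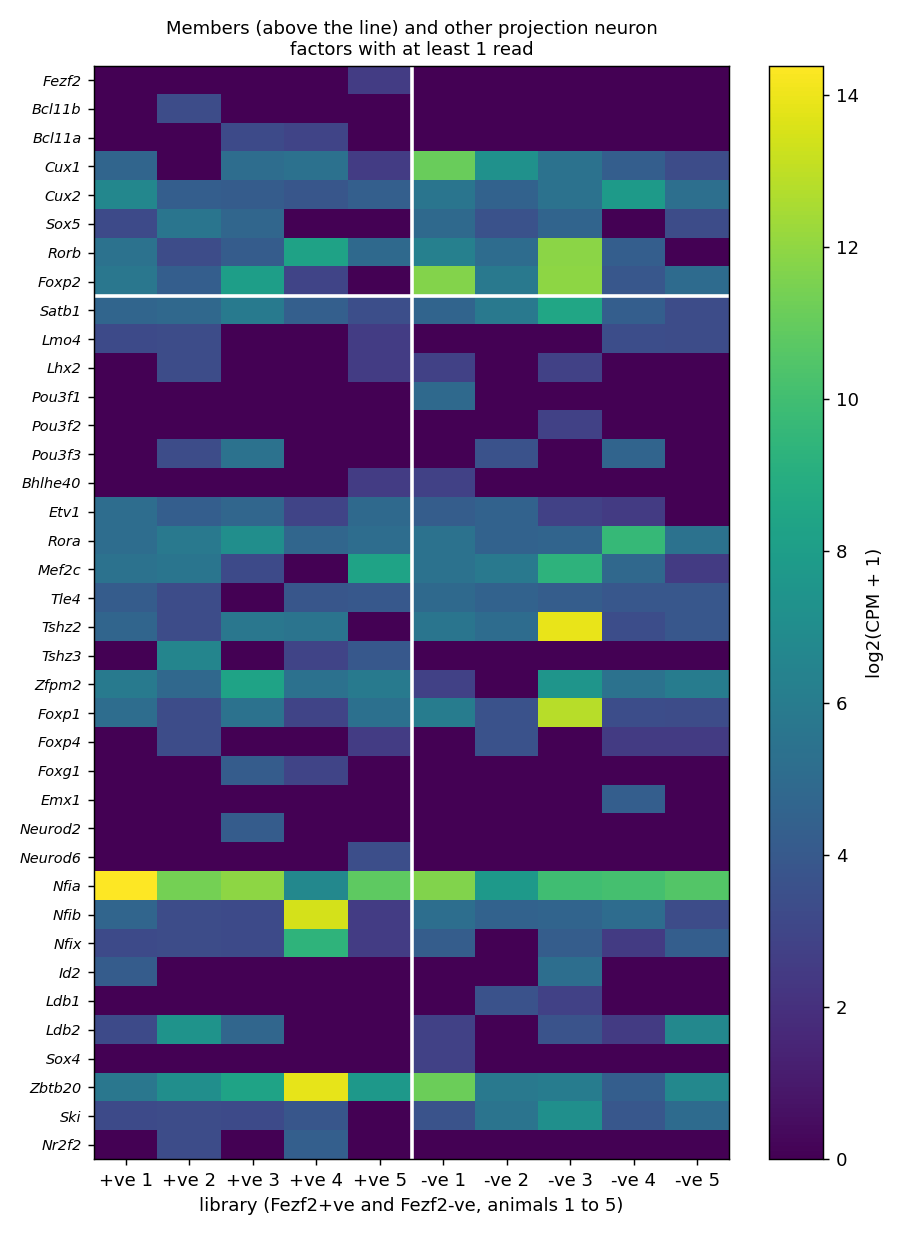
Log2(CPM + 1) in each of the 10 libraries for the 8 factors with a read (above the white line) and 30 of the 31 other projection neuron factors with a read (below, 1 not shown), Fezf2+ve libraries to the left of the vertical line. Foxp2, Rorb, Tshz2 and Foxp1 are bright in Fezf2-ve library 3.

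Microglia and blood genes were higher in Fezf2-ve libraries, without passing the test. All 12 microglia genes passed the filter, 12 of 12 had a log2 fold change below 0 (4043 of all 7409 tested genes did), with 8 at an unadjusted p under 0.05 (3.94% of all tested genes) and 0 called by edgeR with the block, and their median log2 fold change was -4.88. Their summed level was 254, 167, 84.7, 66.0 and 118 CPM in Fezf2+ve libraries 1 to 5 and 6378, 4263, 6787, 1632 and 3954 CPM in Fezf2-ve libraries 1 to 5, with Ctss the most abundant and none at 0, so that the types did not overlap. The 2 libraries with the highest sums, Fezf2-ve 1 and 3, were also those with the most Foxp2, but Fezf2-ve libraries 2 and 5 had 4263 and 3954 CPM of microglia genes and only 5 and 7 reads of Foxp2. DESeq2 called 9 of the 12 microglia genes, against 5.89% of the genes to which it gave an adjusted p. The summed level of the 4 haemoglobin genes, led by Hbb-bs, was likewise higher in the Fezf2-ve library of 5 of 5 animals, though singly only 2 of the 4 genes were, with summed levels of 872, 102, 16.9, 0 and 0 CPM against 4514, 3298, 273, 284 and 9.19 CPM, and 4 of 4 had an unadjusted p under 0.05 with 0 called by edgeR. Hba-a1 and Hba-a2 had the same reads in every library, as copies that share their sequence do, and are uncertain singly. The 9.19 CPM in Fezf2-ve library 5 are 1 read listed for each of these copies. The part of these cells in the difference of Foxp2 was not tested.

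The neuronal identity of the libraries was thinly covered. The 10 excitatory neuron markers, led by Camk2a, summed to 660, 1319, 373, 363 and 2281 CPM in Fezf2+ve libraries 1 to 5 and to 167, 168, 3355, 66.2 and 542 CPM in Fezf2-ve libraries 1 to 5. The sum was higher in the Fezf2+ve library of 4 of 5 animals, and the sum of Fezf2-ve library 3 was mostly Camk2a (529 reads, 3136 CPM). Single genes also made up most of the sums of Fezf2+ve libraries 4 (Map2, 323 CPM) and 5 (Grin2b, 2139 CPM). The same held for Fezf2-ve library 5 (Grin2b, 450 CPM). The vesicular glutamate transporter Slc17a7 had 7 reads in the Fezf2+ve and 4 in the Fezf2-ve type. Of the interneuron list, Slc32a1, Pvalb, Vip and Lhx6 were at 0, and its sums, between 99.4 and 6646 CPM, were led by the long gene Adarb2. The layer 6 corticothalamic list, a class that commonly expresses Foxp2, summed to between 172 and 1892 CPM, led by Thsd7b with Ntsr1 at 0, and was higher in the Fezf2-ve library of 2 of 5 animals. The layer 5 extratelencephalic list, the class that Fezf2 and Bcl11b are best known for, reached at most 47.6 CPM, led by Chst8 with Fam84b at 0. Its sum averaged 2.84 ± 4.19 CPM in Fezf2+ve and 19.0 ± 18.8 CPM in Fezf2-ve libraries (SD, n = 5 each). It was higher in the Fezf2-ve library of 3 animals and in the Fezf2+ve library of the other 2 (exact paired permutation p = 0.25).

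The other glial lists and the vascular list followed neither the type nor the 9 factors in every animal. Astrocyte genes, led by Slc1a2 with Gfap at 0, summed to between 41.3 and 7608 CPM, and oligodendrocyte genes to between 106 and 10488 CPM. Oligodendrocyte precursor genes, led by Vcan, summed to between 72.6 and 4706 CPM. Endothelial genes, led by Flt1, stayed between 8.46 and 74.3 CPM. Outside the microglia and blood lists, 0 marker genes had an unadjusted p under 0.05 in edgeR with the block, and 0 were called.

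**Figure D5:**
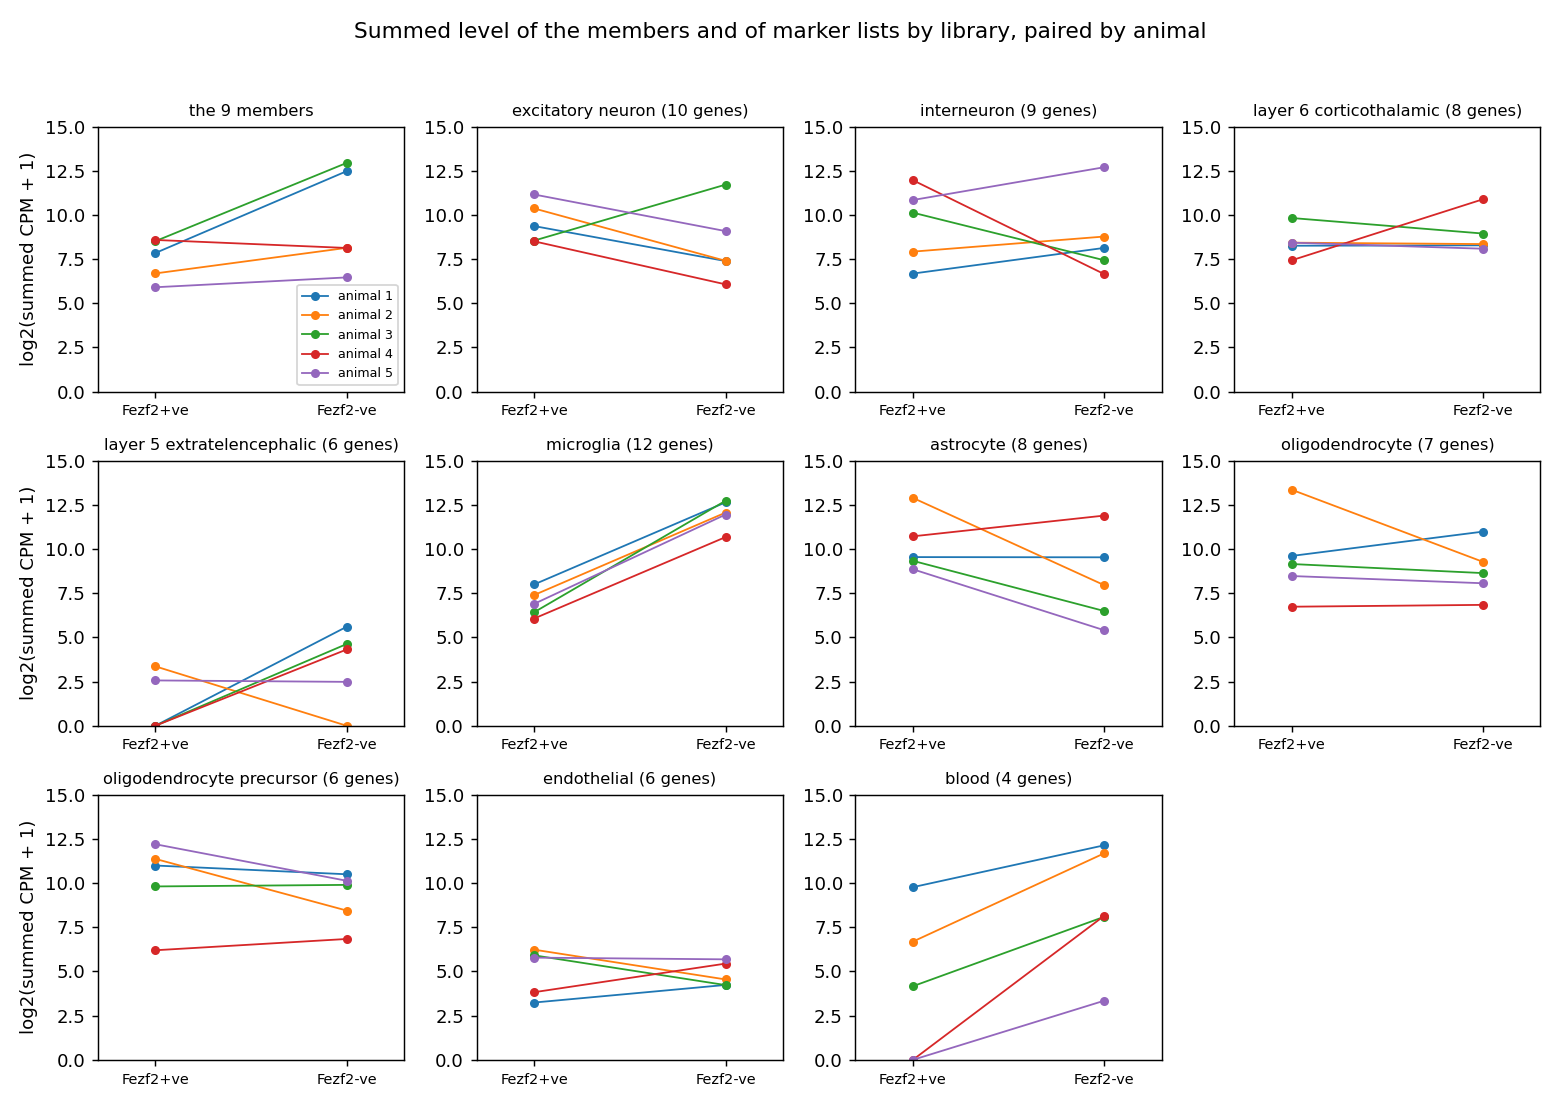
Summed level as log2(summed CPM + 1) of the 9 factors and of 10 marker lists in every library, with a line joining the 2 libraries of each animal. Microglia and blood lists were higher in the Fezf2-ve library of 5 of 5 animals, and the 9 factors together in 4 of 5.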

How the data were processed

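Per the labels and the study's methods, cells of each animal were sorted into 2 types, RNA was extracted, ERCC spike-in transcripts were added, and barcoded cDNA was amplified by PCR and in vitro transcription. The authors trimmed the reads, mapped them with TopHat2 2.1.1 to mm10 and counted them with bedtools 2.26.0 on RefFlat genes, and deposited raw read counts per gene and per ERCC transcript. Whether strand was used, or introns, in counting is not stated in the study's methods; of the annotated genes that overlap the 9 factors, those in the count table had 0 reads. The deposited table of the authors' own DESeq2 comparison was not used.

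Counts were read for 10 libraries and 24453 genes. The 7409 genes that reached 10 CPM in 2 or more libraries entered the test in edgeR 4.0.16 (glmQLFit and glmQLFTest, TMM factors, animal and type as terms), with Benjamini-Hochberg adjustment and calls at 0.1 or below. The test was first tried on simulated counts. The SE is the coefficient without prior count divided by the square root of the F statistic. DESeq2 1.42.0 (Wald test, no prior on the fold change) was an alternative, and an adjusted p it gave as NA stayed NA. Further alternatives were no animal block, RLE or library-size scaling, other filters, and leaving out animals. Levels were compared by an exact two-sided sign-flip permutation test of paired log2(CPM + 1) differences. Genes were matched by name to GENCODE M21 (GRCm38, the same assembly as mm10) for spans and exons.

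Same-numbered libraries came from the same animal, per the study's methods. Deviations from the type means correlated at a mean of 0.0283 within 5 same-animal pairs (between -0.0297 and 0.0966) and -0.00704 across 20 other pairs, over all tested genes, and no 2 libraries held identical counts. The 9 factors and the lists were chosen with earlier results of these data known. Genes named are the 9 factors; from the 38 other factors the 4 with the smallest unadjusted p and Tle4, Etv1, Foxp1 and Rora; the most abundant gene and the genes at 0 of each marker list; and the 2 genes most correlated with each tested factor. Some genes that this rule takes are not reported here. Slc17a7, Map2 and Grin2b were named after their counts were seen.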

Additional observations from a re-analysis of the deposited data

Results flagged for a closer look

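Of 58 groups of 5 libraries examined for a library far from the others (the 9 factors, the named other factors and the lists, by type, on the log2 scale), 8 had one. Chance gives about 1 in 20 for normally distributed values, which does not hold for counts with many zeros. For Fezf2 the gap between Fezf2+ve library 5, with the only read, and the nearest library was the whole range of the type (a ratio of 1), and the same held for Bcl11b in Fezf2+ve library 2. A gene with reads in 1 of 5 libraries always gives this ratio, so these 2 add nothing to the counts themselves. Cux2 in Fezf2+ve library 1 lay above the other 4, with a gap of 0.810 of the range, at 12 reads against 2 to 4. Among the other factors, high libraries were Fezf2-ve 3 for Tshz2 (0.790) and Foxp1 (0.715) and Fezf2-ve 4 for Rora (0.830), and low ones were Fezf2+ve 5 for Ski (0.847) and Fezf2+ve 3 for Tle4 (0.808), each at 0 reads. Fezf2-ve libraries 1 and 3 both hold high Foxp2 and so neither stands alone by this measure. No explanation was tested.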

How the results depend on the processing

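Foxp2, Cux1 and Cux2 kept a log2 fold change below 0 in all 12 alternative analyses of each, between -4.40 and -2.33, between -4.00 and -1.03 and between -1.75 and -0.33. Genes called were 0 in edgeR with the block under other scalings, filters and without each animal (and without animals 1 and 3 together, chosen after the data were seen), but 646 with edgeR and no replicate block and 98 with DESeq2 and the block. Without the replicate block 0 of the 9 factors, 3 other projection neuron factors and 7 microglia genes were called, so that removing the block changed no call of the 9. The alternatives for these lists and for the named other factors were added after the data were seen. With DESeq2 1 of the 5 tested factors (Foxp2, log2 fold change -3.70, adjusted p = 0.0668, against 0.170 to 1.00 in the other alternatives) and 9 microglia genes were called. Sox5 was given no adjusted p by DESeq2. Without each animal in turn all these edgeR counts stayed at 0. By DESeq2, chosen after the data were seen, Foxp2 without each animal lay between -4.22 and -3.05 with an adjusted p between 0.0498 and 0.262. Rorb, at 0.04, was at -2.30 with no replicate block, -0.027 with library size only, -0.029 with no filter, -0.021 with 10 CPM in at least 5 libraries, between -1.40 and 1.40 without each animal, and 2.59 without animals 1 and 3. Sox5 lay between -1.24 and 0.074 without each animal, Foxp1 between -1.90 and 0.11 (0.52 without animals 1 and 3, -5.44 with no replicate block) and Rora between -0.79 and 0.74 (-1.12 and -2.43). The paired level difference of Sox5 lay between -1.24 and 0.088 and that of Rorb between -1.59 and 1.58 without each animal. The cause of these changes was not tested. Factors detected were 8 with at least 1 read and 5 with at least 3 in a library. Per kb of exons in place of span, Foxp2 and Rorb exchanged ranks. With libraries of between 89138 and 217738 reads, a factor under about 14 to 34 CPM cannot be told from 0 in a library, and 5 pairs cannot give a permutation p under 0.05.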
